A study of Mus musculus with 24 samples.

Results

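The effect of a high-fat diet (HFD) against a low-fat diet (LFD), averaged over male, female and ovariectomized female mice, was measured in colon RNA on 24 arrays, all those of the series, 12 on HFD and 12 on LFD. Males (M), females (F) and ovariectomized females, written F(OVX), each gave 4 arrays on LFD and 4 on HFD, named for example M + LFD or F(OVX) + HFD. According to the methods, all mice were C57BL/6J, arrived at 7 weeks of age, ate a diet with 10 (LFD) or 45 (HFD) kcal% fat for 14 weeks, and received azoxymethane (10 mg/kg) and 3 cycles of dextran sulfate sodium (1.5% in the drinking water), a carcinogen and a colitis-inducing agent that together give colon tumors. The mice on LFD thus carried the same tumor treatment as the mice on HFD, and the animals for the arrays were those closest to the mean body weight of their group. The methods give 5 animals per group for the arrays, while the series holds 4 arrays per group. Sex and surgery entered the comparison as a block (M, F or F(OVX)), so that each mouse on HFD was compared with mice on LFD of its own kind. The labels name separate samples only, and p-values therefore measure the spread between these samples.

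Fatty acids of the diet, and bile acids, which the liver makes from cholesterol and releases when fat is eaten, reach the colon in part, and both are sensed by cells of the gut wall. Colon tissue is a mixture of epithelium, immune cells, nerves and smooth muscle. In such RNA, fewer cells of a type and less RNA per cell cannot be told apart. T and natural killer (NK) cells of the gut secrete interferon-γ, which raises the genes of MHC class I presentation, the pathway that shows peptides on the cell surface to T cells, and a family of GTPases directed at microbes. Glutathione transferases of the alpha class (Gsta genes) conjugate toxic and oxidized compounds in the epithelium.

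Per array, 40.5% to 61.9% of 56605 probes had a signal well above background. M + LFD replicates 1 and 2 stood apart in Hox genes, which mark position along the colon: the score of distal minus proximal Hox genes was -6.56 and -4.13 on the log2 scale, against 1.24 to 4.91 on the other 22 arrays. Results are therefore also given without these arrays. By the slide and position that each deposited array is named for, the 3 slides held 1 sex or surgery each, LFD always being in row 1 and HFD below it in row 2. Diet and position on the slide cannot be told apart. The median of the Hox score was 2.73 on LFD and 3.12 on HFD, and the median share of probes well above background was 55.3% and 51.1%.

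Of 22383 genes tested, 167 (0.746%) were DEGs (differentially expressed genes), defined as a 1.5-fold or larger difference with a limma p, before adjustment, under 0.05. HFD up-regulated 40 genes (0.179%) and down-regulated 127 (0.567%). The difference had 1 sign in M, F and F(OVX) for 146 of them (0.652%), 34 up-regulated (0.152%) and 112 down-regulated (0.5%), and 21 DEGs had 2 signs. A gene entered the test if all 4 arrays of some group were well above background, and 60 of the 127 down-regulated genes (47.2%) did so through LFD groups alone, against 8.26% of all genes tested. No HFD group of such a gene was well above background throughout, so their number is no support for a direction. Of the 40 up-regulated genes, 4 (10%) entered through HFD groups alone, against 0.684% of all genes tested. The up-regulated calls are thus not free of this selection either. Among genes well above background on all 24 arrays, 55 were DEGs, 16 higher and 39 lower, and without a filter 182 were higher and 316 lower. The numbers of genes tested differ in these settings, so these counts cannot be set against the shares above. Their direction was not tested. Over all genes, 5652 (25.3%) had 1 sign in the 3 groups. No gene (0 of 22383) reached an adjusted p under 0.05 with limma, and the lowest was 0.975. At an unadjusted p under 0.05 there were 965 genes (4.31%), where an even spread of p-values gives 1119. Of these, 494 were higher (2.21%) and 471 lower (2.1%) on HFD, and the mean was lower on HFD for 48.3% of all genes. The calls below are thus calls of single genes before correction for multiple testing. The shares of 2.21% and 2.1% hold for this fit alone. Counts of list genes at p under 0.05 in alternative settings stand below without the share of all genes there. Those counts are not to be set against these shares. Without M + LFD replicates 1 and 2, the DEGs numbered 259, of which 95 were shared with the 167. The HFD arrays did not overlap the LFD arrays for 558 genes (2.49%) in M, 423 (1.89%) in F and 488 (2.18%) in F(OVX), and for 0 genes in the same direction in all 3 groups.

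**Figure D1:**
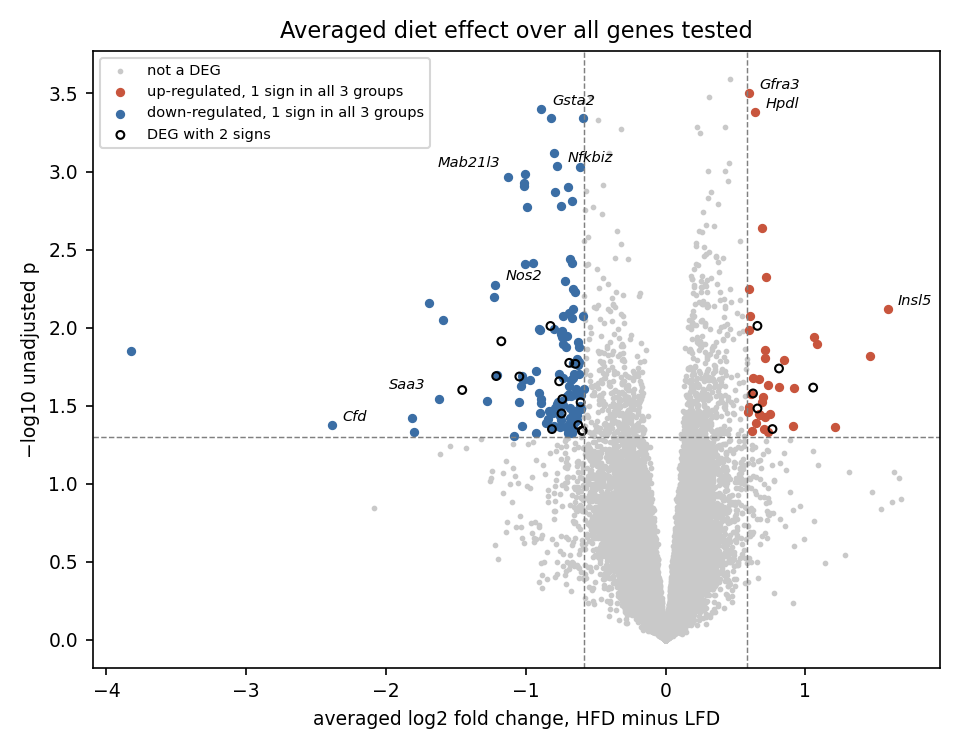
Averaged log2 fold change of HFD against LFD (x axis) and −log10 of the unadjusted limma p (y axis) for each of 22383 genes. Colored points are the 146 DEGs with 1 sign in M, F and F(OVX), open circles the 21 DEGs with 2 signs, and dashed lines the thresholds of 1.5-fold and p of 0.05. There are 112 down-regulated genes on the left, 53 of which entered the test through LFD groups alone. Of the 34 up-regulated genes on the right, 4 entered it through HFD groups alone.

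Whether the diet effect differed among M, F and F(OVX) was tested with an interaction term. At an unadjusted p under 0.05, 938 genes (4.19%) differed, and 0 did at an adjusted p under 0.05 (limma), the lowest being 0.692. A gene whose groups differed in size was therefore not shown to differ among them.

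The genes of MHC class I presentation had lower means on HFD. All 21 tested genes of MHC class I presentation had a lower mean on HFD, 12 of them with 1 sign in the 3 groups, and 11 had an unadjusted p under 0.05 (limma), where 2.1% of all genes tested were lower at that p. None of the 21 was a DEG, because no change reached 1.5-fold. Their median log2 fold change was -0.30, against 0.01 over all genes, with medians of -0.57 in M, -0.35 in F and -0.02 in F(OVX). Without M + LFD replicates 1 and 2, 7 of the 21 had a p under 0.05 and the median was -0.23. The number was 6 with scaling to the 75th percentile and 0 without the M arrays. The promoters of the light chain of MHC class I (B2m) and of the classical heavy chains H2-K1 and H2-D1 are shown because these are among the brightest of the genes that moved together. These 3, like the other members of lists named below that are not DEGs, were picked for the text after their values were seen. Each stretch covers 250 bases before the RefSeq start site, written from 5′ to 3′ along the gene, and capitals mark matches to a pattern of the NF-κB type (GGGA and CC with 4 free bases between them) and to AANNGAAA, a core pattern of interferon regulatory factors, searched on both strands. These letters were chosen after other patterns had been searched and the promoters looked at.

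B2m (GRCm38.p6, chr2:122147437-122147686, plus strand): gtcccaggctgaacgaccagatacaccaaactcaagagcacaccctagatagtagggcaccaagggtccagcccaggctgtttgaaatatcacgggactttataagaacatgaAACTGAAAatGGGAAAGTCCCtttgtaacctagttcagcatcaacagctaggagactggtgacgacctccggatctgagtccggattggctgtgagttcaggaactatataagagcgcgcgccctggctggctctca
H2-K1 (GRCm38.p6, chr17:34000348-34000597, minus strand): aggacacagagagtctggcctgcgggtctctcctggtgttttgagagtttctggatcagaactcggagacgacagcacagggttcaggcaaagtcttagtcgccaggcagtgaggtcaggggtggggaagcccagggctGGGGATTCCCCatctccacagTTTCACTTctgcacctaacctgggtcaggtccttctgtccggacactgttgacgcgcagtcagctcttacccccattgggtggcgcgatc
H2-D1 (GRCm38.p6, chr17:35262844-35263093, plus strand): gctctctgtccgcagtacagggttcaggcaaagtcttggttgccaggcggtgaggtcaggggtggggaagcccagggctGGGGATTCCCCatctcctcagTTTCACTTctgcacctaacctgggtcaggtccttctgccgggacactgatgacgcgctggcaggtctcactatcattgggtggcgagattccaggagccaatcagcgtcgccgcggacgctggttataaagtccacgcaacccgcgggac

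All 3 windows held both patterns close together. Each window held a pair of overlapping NF-κB-type matches, which run together in capitals. The NF-κB-type pattern was found in 7 of the 17 tested list genes that have a promoter entry (41.2%) and in 17.3% of 27025 promoters of the same length. AANNGAAA was found in 10 of the 17 (58.8%) and in 21.6% of all. The 3 printed promoters count among the 17 and were seen before the patterns were chosen. In H2-K1 and H2-D1 the marked letters were the same. These shares are therefore no evidence that the list holds more matches than other genes. A match describes the letters and not binding.

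B2m ranged from 14.34 to 15.35 with a median of 14.90 (log2 normalized signal) on the 12 LFD arrays, and from 13.90 to 14.98 with a median of 14.41 on the 12 HFD arrays. The diet groups overlapped, and the averaged log2 fold change was -0.45 ± 0.13 (SE; limma, unadjusted p = 0.00188, adjusted p = 0.984). H2-K1 had a median of 16.28 (15.99 to 16.62) on LFD and of 15.96 (15.33 to 16.46) on HFD. Its log2 fold change was -0.36 ± 0.11, and that of H2-D1 was -0.30 ± 0.12, with -0.50 in M, -0.41 in F and 0.01 in F(OVX). Nlrc5, the activator of MHC class I transcription, was lower by -0.54 ± 0.19 on the log2 scale, with 1 sign in the 3 groups. The peptide transporter Tap1 (-0.57 ± 0.23) and the immunoproteasome subunit Psmb8 (-0.48 ± 0.20) were lower in all 3 groups as well.

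The gene of interferon-γ itself, Ifng, was a DEG that entered the test through LFD groups alone. Ifng ran from 4.17 to 7.16 with a median of 5.88 on LFD, where all 12 arrays were well above background, and from 3.79 to 7.02 with a median of 4.81 on HFD, where 8 of 12 were. The groups overlapped widely. Its log2 fold change was -0.74 ± 0.32, in part against values not well above background. It kept its call in 25 of 37 alternatives. Without M + LFD replicates 1 and 2 it was no longer a DEG (-0.56, limma, unadjusted p = 0.109). All 18 tested interferon-γ-induced GTPases and chemokines had a lower mean on HFD, and 14 had 1 sign in the 3 groups. Their median log2 fold change was -0.42 (-0.81 in M, -0.50 in F and -0.14 in F(OVX)). Of these, 2 were DEGs and 4 had a p under 0.05. That number of 4 was 2 without M + LFD replicate 2, M + LFD replicate 3, M + HFD replicate 3, F + HFD replicate 1, F(OVX) + LFD replicate 3 or both arrays of low Hox score. It was 1 without all M or all F arrays, 7 without F(OVX) + HFD replicate 3, 8 without F(OVX) + HFD replicate 2, 13 without F(OVX) + LFD replicate 2 and 11 without all F(OVX) arrays. Gbp8, a guanylate-binding protein, had a median of 7.47 (6.64 to 8.21) on LFD and of 6.72 (5.37 to 7.40) on HFD, and was down-regulated 1.65-fold (-0.72 ± 0.23, limma, unadjusted p = 0.00499). Ifi47, a GTPase of the immunity-related family, had a median of 11.72 on LFD and 10.58 on HFD and a log2 fold change of -0.74 ± 0.32, and had -0.51 (limma, unadjusted p = 0.121) without the arrays of low Hox score. It kept its call in 27 of 38 alternatives and lost it with 7 of 24 single arrays left out.

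The wider list of interferon-stimulated genes had less in common among the groups. A lower mean was seen for 37 of 38 genes, yet 6 of the 38 were lower in all 3 groups and 3 had a p under 0.05. The averaged median was -0.33, with -0.94 in M, -0.23 in F and 0.20 in F(OVX). In a fit without the M arrays the median was -0.03.

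The median of T and NK cell genes was below 0 in each group. All 24 tested genes had a lower mean, 17 had 1 sign in the 3 groups, and 9 had a p under 0.05 (limma), against 2.1% of all genes. The median log2 fold change was -0.42, with -0.45 in M, -0.41 in F and -0.23 in F(OVX). The mean signal of the list ran from 7.80 to 8.98 (median 8.13) on LFD and from 7.47 to 8.78 (median 7.87) on HFD. The highest HFD array lay within the LFD range, in F + HFD. The number at p under 0.05 was 4 without F + LFD replicate 3, F + LFD replicate 4 or F(OVX) + LFD replicate 3, 5 without M + HFD replicate 1 or F + HFD replicate 1, 5 without M + LFD replicates 1 and 2, and 1 without all M arrays.

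Il2rb, the β chain of the interleukin-2 and interleukin-15 receptors, was the DEG of that list. It had a median of 8.06 (7.32 to 9.26) on LFD and 7.56 (6.53 to 8.65) on HFD, and a log2 fold change of -0.62 ± 0.24 (limma, unadjusted p = 0.0166). It kept its call in 26 of 38 alternatives and lost it without M + LFD replicate 2, F + LFD replicate 3, F + LFD replicate 4, F + HFD replicate 1, F + HFD replicate 2 or F(OVX) + HFD replicate 2. The NK receptor chain Klrd1 had a median of 7.32 on LFD and 6.84 on HFD, with -0.55 ± 0.17 (limma, unadjusted p = 0.0039). The T cell receptor chains Cd3g (-0.58 ± 0.20) and Cd3d (-0.53 ± 0.22) had 1 sign in the 3 groups. Klrb1a, an NK cell lectin-like receptor, was also called, but it entered the test through F + LFD alone and was well above background on 8 of 12 LFD and 5 of 12 HFD arrays. Lair1, an inhibitory collagen receptor of leukocytes, fell from a median of 7.07 (6.38 to 8.58) to 6.62 (6.18 to 7.26), a 1.53-fold difference. It kept its call in 29 of 38 alternatives and lost it without F + LFD replicate 3, F + LFD replicate 4, F + HFD replicate 1, F(OVX) + LFD replicate 3 or F(OVX) + HFD replicate 2.

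Of the other blood cells, all 17 macrophage and monocyte genes had a lower mean on HFD (median -0.30), 3 of them with 1 sign, and 1 (Fcgr1) had a p under 0.05. The median was 0.08 in M, -0.46 in F and -0.43 in F(OVX). With the Hox score as a covariate 9 of the 17 had a p under 0.05 and the median was -0.48. With that covariate 354 genes were DEGs in all, against 167 in the main fit. Of 4 neutrophil genes tested, 3 had a lower mean and 0 had a p under 0.05 (limma), with a median of -0.69, and 2 were DEGs without M + LFD replicates 1 and 2. Of 11 MHC class II genes, 8 were lower in all 3 groups (median -0.37) and 1, H2-DMa, had a p under 0.05 (limma, -0.51 ± 0.22). With the Hox score as a covariate, all 11 had a lower mean and 6 had a p under 0.05. Of 16 B and plasma cell genes, 10 had a higher mean and 6 a lower one (median 0.07). The direction turned without M + LFD replicates 1 and 2, where 2 were higher and 14 lower (median -0.28), and with the Hox score as a covariate, where 1 was higher and 15 lower. In the list of mast cells and eosinophils, Prg2, the major basic protein of eosinophil granules, was the DEG of 8 genes tested. It entered the test through F + LFD alone, was well above background on 10 of 12 LFD and 6 of 12 HFD arrays, and lost its call in 19 of 36 alternatives, 12 of them with 1 array left out.

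**Figure D2:**
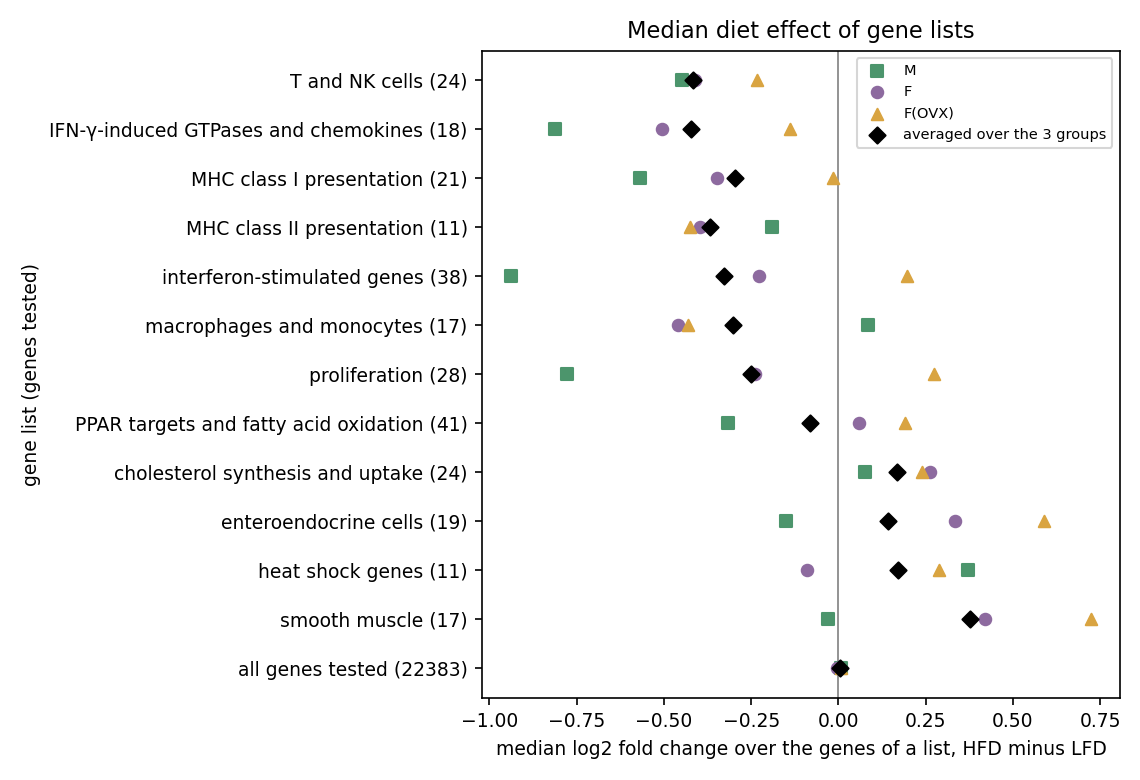
Median log2 fold change (HFD minus LFD, x axis) over the genes of 12 gene lists and over all genes tested, with the number of genes in parentheses, for M (squares), F (circles), F(OVX) (triangles) and the averaged effect (diamonds). The T and NK cell list lies below 0 in each group, whereas interferon-stimulated genes lie at -0.94 in M and at 0.20 in F(OVX).

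Among genes of defence against microbes, Nos2 and Saa3 were down-regulated. Nos2, which encodes the inducible nitric oxide synthase, had a median of 9.14 (7.70 to 10.66) on LFD and of 7.63 (6.19 to 9.87) on HFD. In F(OVX) the arrays did not overlap, the LFD values being 8.92 to 10.01 and the HFD values 6.69 to 8.48. The averaged log2 fold change was -1.22 ± 0.39, a 2.32-fold difference (limma, unadjusted p = 0.0053, exact permutation p = 0.00917, two-sided), and the group differences were -0.17 in M, -1.46 in F and -2.02 in F(OVX). Without the F(OVX) arrays it was no longer a DEG (-0.82, limma, unadjusted p = 0.136). Saa3, an acute-phase serum amyloid A protein, had a log2 fold change of -1.62 ± 0.69, with a difference of -0.02 in F(OVX). Without the arrays of low Hox score Saa3 had -0.97 (limma, unadjusted p = 0.142). Its call was lost without M + LFD replicate 1, M + LFD replicate 2, M + HFD replicate 1 or F + HFD replicate 3. Both stand in a list of 14 Reg proteins and antimicrobial genes, of which 10 had a lower mean and 5 had 1 sign.

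Nfkbiz, the nuclear IκBζ that steers NF-κB target genes, was down-regulated, with 1 sign in the 3 groups (-0.63 in M, -0.82 in F and -0.88 in F(OVX)). Its median was 9.45 (8.55 to 10.27) on LFD and 8.42 (8.04 to 9.89) on HFD. In F all 4 HFD arrays lay under all 4 LFD arrays. The averaged value was -0.78 ± 0.20 (limma, unadjusted p = 0.000928, adjusted p = 0.984, exact permutation p = 0.00222, two-sided), and it was -0.78 without M + LFD replicates 1 and 2. A second tested probe of Nfkbiz gave -0.32, and the mean of both probes, -0.55, lay under the fold threshold.

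The down-regulated DEG of smallest p with 1 sign and a symbol was Gsta2. It ran from 9.41 to 11.67 with a median of 10.16 on LFD and from 8.84 to 10.08 with a median of 9.55 on HFD. In F(OVX) the lowest LFD value, 9.70, lay just above the highest HFD value, 9.69. Its log2 fold change was -0.89 ± 0.21, a 1.85-fold difference (limma, unadjusted p = 0.0004, adjusted p = 0.975, exact permutation p = 0.000752, two-sided), with -1.25 in M, -0.50 in F and -0.91 in F(OVX). Gm10639 (-0.80 ± 0.20) and Gsta4 (-0.69 ± 0.21) were DEGs too, and Gsta3 was lower by -0.51 ± 0.21 with 1 sign in the 3 groups. Gsta2 and Gm10639 kept their call in all 38 alternatives run. Without M + LFD replicates 1 and 2, Gsta4 had -0.58, just under the fold threshold. Gsta2 and Gm10639 both lie on chromosome 9, and their promoters are shown with capitals for runs of 10 or more bases that both share.

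Gsta2 (GRCm38.p6, chr9:78347146-78347395, minus strand): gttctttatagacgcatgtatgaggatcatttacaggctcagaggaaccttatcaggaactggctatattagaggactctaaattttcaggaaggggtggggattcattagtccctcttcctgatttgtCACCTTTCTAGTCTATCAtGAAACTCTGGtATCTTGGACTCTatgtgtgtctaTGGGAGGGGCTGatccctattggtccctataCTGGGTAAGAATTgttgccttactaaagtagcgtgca
Gm10639 (GRCm38.p6, chr9:78289678-78289927, plus strand): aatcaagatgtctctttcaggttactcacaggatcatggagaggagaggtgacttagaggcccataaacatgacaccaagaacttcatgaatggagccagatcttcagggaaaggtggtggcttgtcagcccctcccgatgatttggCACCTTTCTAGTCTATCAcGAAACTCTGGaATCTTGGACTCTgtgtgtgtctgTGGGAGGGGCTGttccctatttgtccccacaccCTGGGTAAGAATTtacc

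Of the 250 bases, 65 lay in shared runs, the longest of 18 bases. Whether signal crosses between Gsta2, Gm10639 and the other Gsta genes on the array was not tested, so these genes are not taken as independent evidence. Of 29 tested genes of glutathione metabolism and oxidant defence, 17 had a lower and 12 a higher mean, and the median was -0.07. The balance turned to 18 higher and 11 lower without M + LFD replicates 1 and 2, to 19 and 10 with the Hox score as a covariate, and to 16 and 13 with scaling to the 75th percentile.

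**Figure D3:**
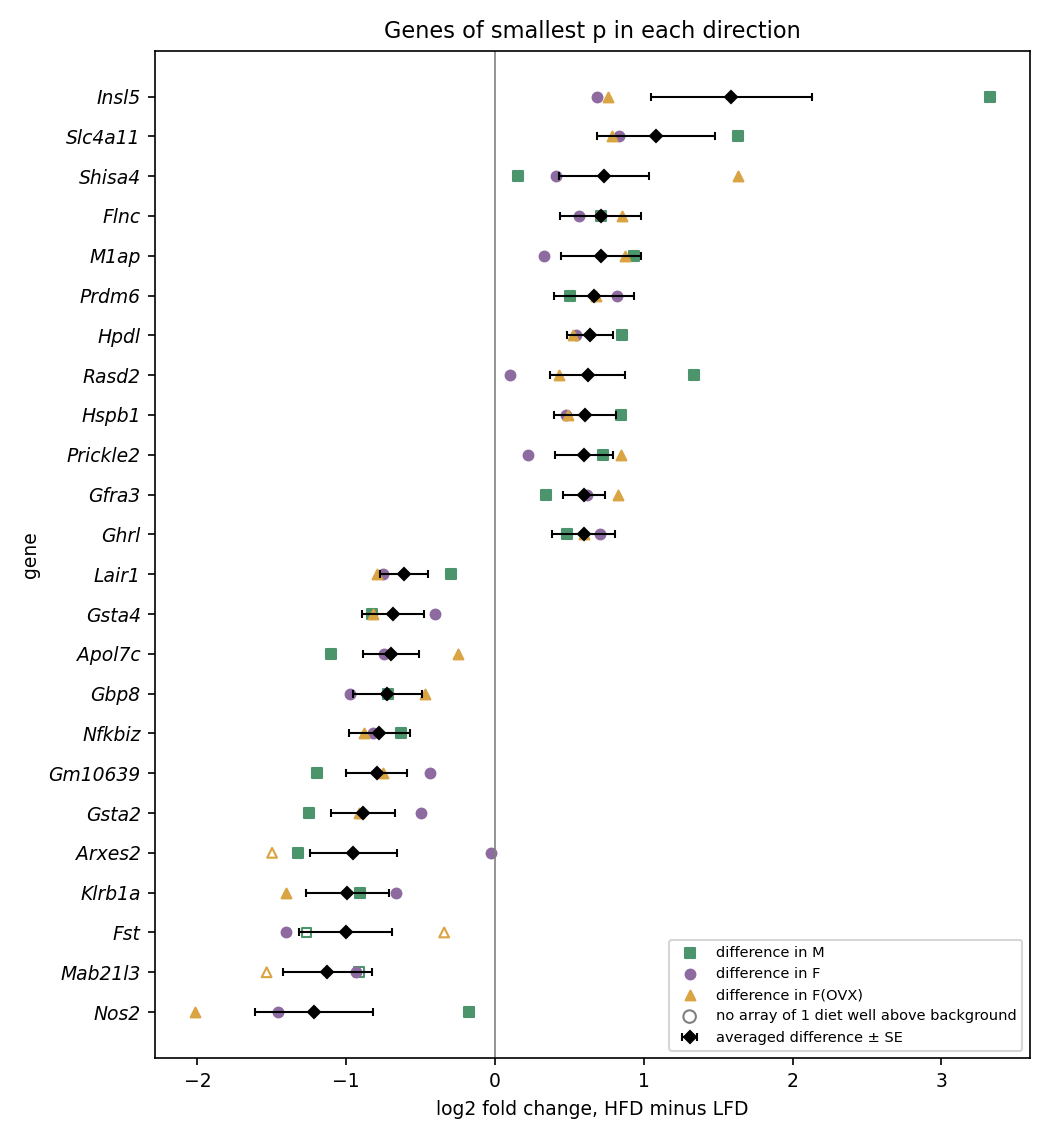
Log2 fold change of HFD against LFD (x axis), with the averaged value ± SE (black) and the difference within M, F and F(OVX). Shown are the 12 up-regulated and 12 down-regulated DEGs of smallest p with 1 sign and a symbol. Open symbols mark a difference where no array of 1 diet was well above background. Prickle2, Mab21l3, Klrb1a, Arxes2 and Fst entered the test through F + LFD alone, so their sizes are uncertain. Points within a row lie on 1 side of 0, which the choice of genes fixed.

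Several further DEGs were dim and entered the test through F + LFD alone, so no fold is given for them. Mab21l3, a gene of the Mab21 family, was well above background on 10 of 12 LFD and 3 of 12 HFD arrays, none of those 3 in M + HFD or F(OVX) + HFD. Fst, which encodes the activin inhibitor follistatin, was well above background on 6 LFD arrays and 1 HFD array, none of them in F(OVX), and Sp5, a target of Wnt signaling, on 8 and 2. Apol7c, of the apolipoprotein L family, was measured on all arrays and fell from a median of 8.97 to 8.21 (-0.70 ± 0.19, limma, unadjusted p = 0.00126).

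Adipose genes were uneven. Cfd, the adipocyte-secreted complement factor D (adipsin), had a median of 8.95 (2.02 to 11.72) on LFD and of 5.89 (2.02 to 9.98) on HFD. It was well above background on 10 of 12 LFD and 7 of 12 HFD arrays, 1 of them in M + HFD and 2 in F(OVX) + HFD. Its log2 fold change was -2.39 ± 1.11 (limma, unadjusted p = 0.0422, exact permutation p = 0.0562, two-sided), in part against values at background, and -0.18 in F, where all HFD arrays were well above background. It kept its call in 16 of 36 alternatives and lost it with 15 of 24 single arrays left out. Arxes2, an adipocyte-related gene, entered the test through F + LFD alone, was well above background on 9 of 12 LFD and 4 of 12 HFD arrays, and differed by -0.03 in F. Of 13 adipocyte genes tested, 8 had a lower and 5 a higher mean, and the mean signal of the list ran from 7.6 to 9.14 on LFD and from 6.90 to 9.15 on HFD. Among the higher ones, the leptin gene Lep had 0.27 ± 0.11 (limma, unadjusted p = 0.0247), under the fold threshold. Its differences were 0.28 in M, 0.24 in F and 0.28 in F(OVX). The part of adjoining fat in the Cfd and Arxes2 values was not tested.

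The hormone genes Insl5 and Ghrl were up-regulated. Insl5, a peptide hormone of L cells in the distal colon, had a median of 11.64 (6.10 to 12.50) on LFD and of 12.29 (11.94 to 13.20) on HFD. M + LFD replicates 1 and 2, the arrays of low Hox score, were the lowest, at 6.10 and 7.22, and the next lowest was 10.47. The averaged log2 fold change was 1.59 ± 0.54, a 3.01-fold difference (limma, unadjusted p = 0.00756, exact permutation p = 0.000169, two-sided). Without those arrays it was 0.75 (limma, unadjusted p = 0.00215), and Insl5 remained a DEG in all 38 alternatives. The differences were 3.33 in M, 0.68 in F and 0.76 in F(OVX).

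Ghrl, which encodes ghrelin, the appetite hormone, was up-regulated by 0.60 ± 0.21 (limma, unadjusted p = 0.0104), with 0.49, 0.71 and 0.60 in M, F and F(OVX). Its median was 6.76 (5.48 to 7.90) on LFD and 7.28 (6.76 to 8.01) on HFD, and 3 tested probes gave 0.49 to 0.65. Without the arrays of low Hox score Ghrl had 0.51 (limma, unadjusted p = 0.0384), under the fold threshold, and it kept its call in 24 of 38 alternatives. Of 19 enteroendocrine genes tested, 15 had a higher mean and 3 had a p under 0.05, namely Insl5, the serotonin-lineage transcription factor Fev (0.55 ± 0.19) and the peptide Pyy (0.42 ± 0.18), whose difference was 0.99 in M and -0.07 in F(OVX). The median of the list was 0.14, and 0.35 with 8 genes at p under 0.05 without M + LFD replicates 1 and 2. On all arrays, the mean signal of the list was lower on HFD in M (9.41 against 9.58 on LFD). It was higher on HFD in F (9.37 against 9.09) and in F(OVX) (9.39 against 8.92).

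Gfra3, the receptor of the neurotrophic factor artemin, had the smallest p of the up-regulated DEGs with 1 sign and a symbol. It ran from 7.13 to 8.41 with a median of 7.96 on LFD and from 7.94 to 9.13 with a median of 8.51 on HFD. All 4 F(OVX) + HFD arrays lay above the F(OVX) + LFD arrays, while the M and F arrays overlapped. The log2 fold change was 0.60 ± 0.14 (limma, unadjusted p = 0.000315, adjusted p = 0.975, exact permutation p = 0.000192, two-sided), with 0.34 in M, 0.62 in F and 0.83 in F(OVX). At 1.51-fold it lay close to the threshold, so that it kept its call in 27 of 38 alternatives, and the smallest log2 fold change among them was 0.48. Without M + LFD replicates 1 and 2 together it was 0.57, under the fold threshold. Without M + LFD replicate 2, M + HFD replicate 2, F + LFD replicate 3, F + HFD replicate 1, F(OVX) + LFD replicate 4, F(OVX) + HFD replicate 2 or F(OVX) + HFD replicate 4 it fell under the fold threshold. The other tested genes of enteric glia and of the receptors and ligands of its family were not DEGs, and 7 of the 10 genes had a higher mean. Hpdl, a mitochondrial dioxygenase-like protein, followed with 0.64 ± 0.15, and its median rose from 9.40 to 10.02. Without the arrays of low Hox score Hpdl had 0.54 and was no longer a DEG.

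**Figure D4:**
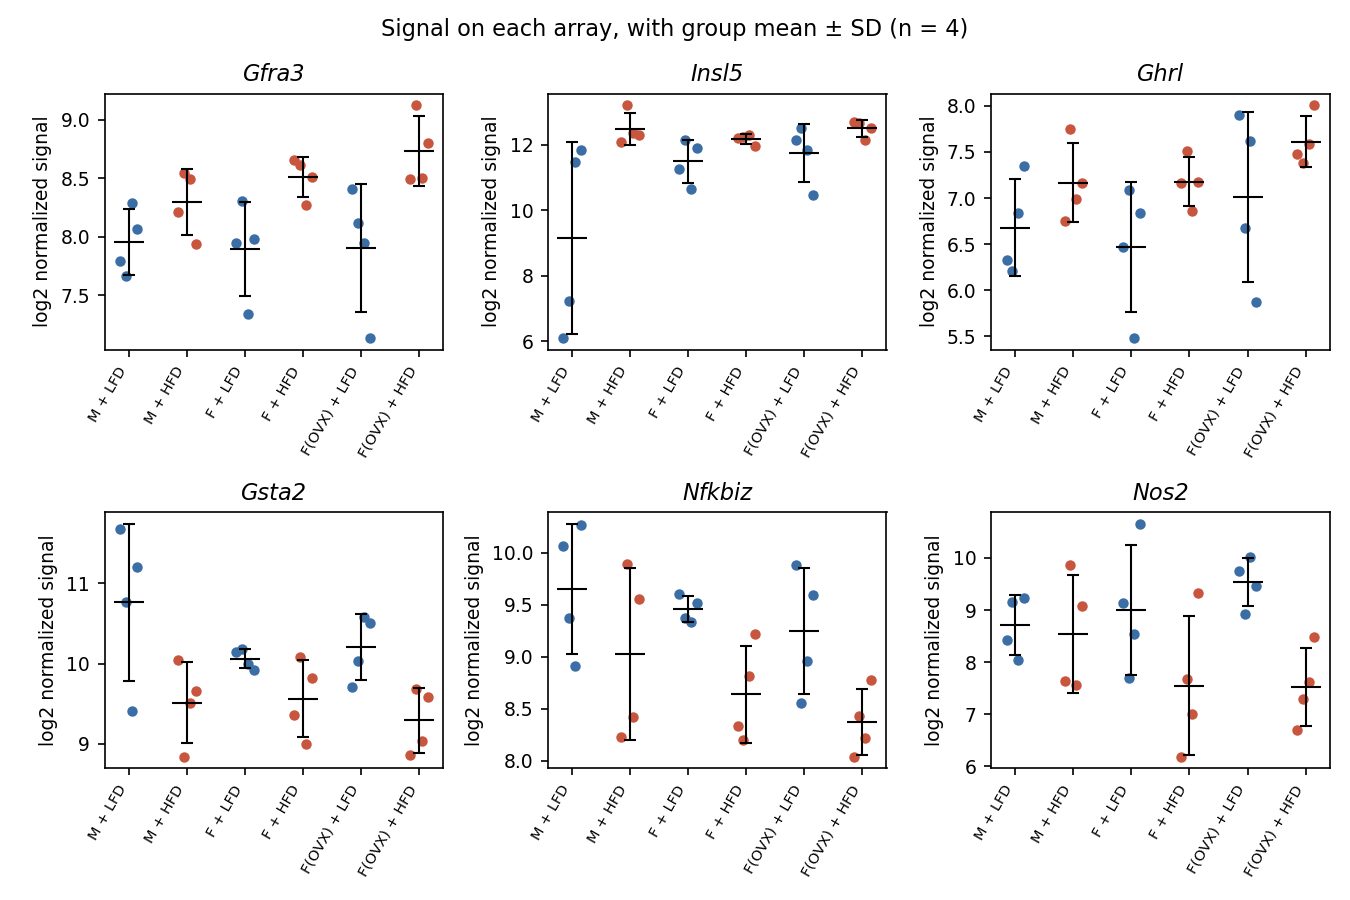
Log2 normalized signal (y axis) of 6 genes on each of the 24 arrays by group, LFD in blue and HFD in red, with the group mean ± SD (n = 4). Insl5 lies at 6.10 and 7.22 on M + LFD replicates 1 and 2, and at 10.47 or more on the other arrays.

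Of smooth muscle genes, all 17 tested had a higher mean on HFD and 2 had a p under 0.05, against 2.21% of all genes, with a median log2 fold change of 0.38, yet the median was -0.03 in M, 0.42 in F and 0.72 in F(OVX), and 6 of 17 had 1 sign. Of the 17, Cnn1, calponin of the contractile apparatus, was a DEG (0.59 ± 0.26, limma, unadjusted p = 0.0346), and its call was kept in 21 of 38 alternatives and lost with 11 of 24 single arrays left out. Scaling to the 75th percentile gave 7 genes at p under 0.05, and leaving out all M arrays gave 8. Beside it, the smooth muscle regulator Myocd had a p under 0.05 (0.35 ± 0.17). Flnc, an actin cross-linker of muscle (0.71 ± 0.27), and Prdm6, a transcription factor of smooth muscle (0.67 ± 0.27), were DEGs outside the list. The mean signal of the list ran from 10.01 to 12.73 on LFD and from 10.32 to 12.31 on HFD, and the part of muscle in the sampled tissue in other values was not tested. Hspb1, a small heat shock protein, had 0.60 ± 0.21 and lost its call in 15 of 38 alternatives, 10 of them with 1 array left out. It had 0.56 without the arrays of low Hox score, under the fold threshold. All 11 heat shock genes had a higher mean, with a median of 0.17, and 4 of them had 1 sign in the 3 groups. Slc4a11 (a membrane transporter), M1ap, Rasd2, Shisa4 and Prickle2 (planar polarity) had log2 fold changes of 0.60 to 1.08. They made up the rest of the 12 up-regulated DEGs of smallest p with 1 sign and a symbol. M1ap and Rasd2 were no longer DEGs without M + LFD replicates 1 and 2 (0.51 and 0.35) or with the Hox score as a covariate. Prickle2, which entered the test through F + LFD alone, lost its call in 12 of 36 alternatives. Shisa4 had 0.15 in M, 0.41 in F and 1.63 in F(OVX), where 2 of 4 F(OVX) + LFD arrays were well above background. Its call was kept in 33 of 37 alternatives, and its smallest log2 fold change over the alternatives was 0.24.

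**Figure D5:**
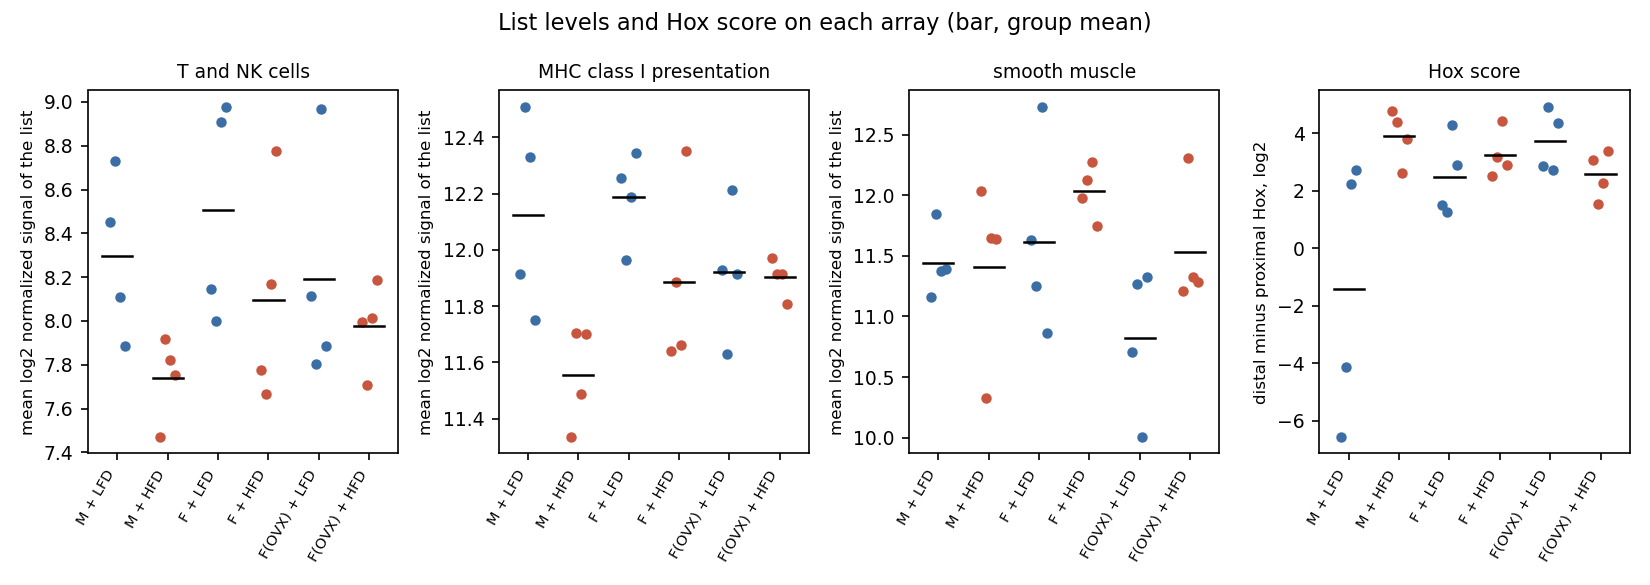
Mean log2 normalized signal of the genes of 3 lists and the Hox score (distal minus proximal) on each array (y axes) by group, LFD in blue and HFD in red, with the group mean as a bar. The T and NK cell list has a lower mean on HFD in each sex or surgery, and M + LFD replicates 1 and 2 lie at -6.56 and -4.13 in Hox score.

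Lists of lipid metabolism held no DEG. Of 41 tested targets of PPAR receptors and genes of fatty acid oxidation, 28 had a lower and 13 a higher mean, 5 had 1 sign in the 3 groups, and 1 (Eci2) had a p under 0.05. The median was -0.08, with -0.32 in M and 0.19 in F(OVX). The balance turned without M + LFD replicates 1 and 2, to 28 higher and 13 lower (median 0.10), and with the Hox score as a covariate, to 27 and 14. The carnitine transferase Cpt1a had -0.18 ± 0.18, the kinase Pdk4 -0.60 ± 0.49, the lipase inhibitor Angptl4 -0.23 ± 0.28, the lipid droplet protein Plin2 0.01 ± 0.10 and the fatty acid receptor Cd36 -0.09 ± 0.16. In M, F and F(OVX), Pdk4 had -1.81, 0.02 and -0.002, and Angptl4 had -0.84, 0.06 and 0.09. Without M + LFD replicates 1 and 2, Pdk4 had -0.04 and Angptl4 -0.04. Fabp1 was not tested, since it was well above background on 2 of 24 arrays.

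In cholesterol synthesis and uptake, a higher mean was seen for 22 of 24 genes, 11 were higher in all 3 groups, and the median was 0.17 (0.08 in M, 0.26 in F and 0.24 in F(OVX)). The sterol isomerase Ebp had 0.16 ± 0.06, with 0.16 in each group, and was the 1 gene of the list with a p under 0.05 (limma, unadjusted p = 0.0185). Insig1, which holds back the sterol sensor, had 0.46 ± 0.22. Thrsp, a lipogenic factor, had -0.57 ± 0.18 (limma, unadjusted p = 0.00395), just under the fold threshold, with -0.77 in M, 0.05 in F and -0.97 in F(OVX).

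Of 17 cytokine and chemokine genes tested, 14 had a lower mean and 1, Ifng, was a DEG. The groups went in different directions. The mean signal of the list was 6.32 in M + LFD and 6.65 in M + HFD. It was 6.98 and 6.35 in F, and 6.93 and 6.39 in F(OVX), on LFD and HFD. Tnf had -0.25 ± 0.36. The chemokine Ccl2 had -0.56 ± 0.30 and became a DEG in 6 of 38 alternatives, with -0.74 without M + LFD replicates 1 and 2. The goblet cell mucin Muc2 had -0.07 ± 0.12, an average over -0.44 in M, -0.04 in F and 0.27 in F(OVX). A second tested probe of Muc2 gave 0.05. Il6 was well above background on 0 of 24 arrays and was not tested. Just outside the fold threshold lay Crym (0.54 ± 0.16) above and Tcaim (-0.52 ± 0.14, which entered the test through F + LFD alone) below, against 0.59 for the member nearest to it among the up-regulated genes named, Cnn1, and -0.61 for Lair1 among the down-regulated. Of 28 proliferation genes, 23 had a lower mean, none with 1 sign, and the median was -0.78 in M, -0.24 in F and 0.27 in F(OVX). Without the M arrays 17 were higher and 11 lower.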

How the data were processed

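Colon RNA of 24 mice was hybridized to Agilent 1-color arrays. The deposited values are spot intensities from Feature Extraction 11.0.1.1, background-subtracted by the authors before any normalization between arrays. Deposited flags mark spots well above background and outliers. The array's signal over background limits precision, as does the number of arrays.

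Control spots were left out, and log2 values of the processed signal were quantile-normalized. Probes were matched by accession to gene symbols of GRCm38.p6 (58.3% of 56605), and a gene was its brightest probe, tested if some group had it well above background on each of its 4 arrays. HFD and LFD were compared with limma 3.58.1 in R 4.3.3, with sex or surgery as a fixed block. DEGs differed 1.5-fold or more with p under 0.05 before adjustment. P-values were adjusted by Benjamini-Hochberg over 22383 genes. Exact permutations of the diets within blocks (343000 assignments, smallest p 5.83e-06) were two-sided. The script was tested on simulated data.

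Members, 45 gene lists and tests were chosen with earlier results of these data known. Named were the 12 DEGs of smallest p per direction with 1 sign and a symbol, up to 4 such DEGs per list, genes at an adjusted p under 0.05 (0 found), 13 fixed genes (some genes are not reported here), and 1 gene per direction just outside the fold threshold. Promoters are from RefSeq (GRCm38.p6). Alternatives covered normalization, background, probe filters, models, and arrays or groups left out. Genome coordinates of the array probes were not used here.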

Additional observations from a re-analysis of the deposited data

Results flagged for a closer look

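Of 258 groups of 4 arrays (each gene in 6 groups), 10 (3.88%) held 1 array that stood far from the other 3 by Dixon's test, and chance gives about 1 in 20. All values are log2 normalized signals. Hpdl read 10.43 on F(OVX) + HFD replicate 4, against 9.99 to 10.05 on the other arrays of its group. Hspb1 read 14.20 on F + LFD replicate 3, against 12.14 to 12.35 on the other arrays of its group. Klrb1a read 2.14 on F + HFD replicate 2, against 4.35 to 4.59 on the other arrays of its group. Arxes2 read 3.08 on F(OVX) + HFD replicate 1, against 2.07 to 2.11 on the other arrays of its group. Gbp8 read 7.06 on M + LFD replicate 4, against 7.66 to 7.74 on the other arrays of its group. Cnn1 read 13.22 on M + HFD replicate 2, against 14.94 to 15.10 on the other arrays of its group. Cfd read 2.05 on F(OVX) + LFD replicate 4, against 8.83 to 10.08 on the other arrays of its group. Cpt1a read 13.45 on F + LFD replicate 1, against 13.12 to 13.18 on the other arrays of its group. Muc2 read 16.29 on F + HFD replicate 3, against 17.00 to 17.12 on the other arrays of its group. Crym read 5.96 on M + LFD replicate 1, against 7.23 to 7.32 on the other arrays of its group. These arrays entered the averaged effects above.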

How the results depend on the processing

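The number of DEGs was 167, and 146 with 1 sign in the 3 groups. It was 44 and 40 with normexp background correction, 55 and 49 with probes well above background on all 24 arrays, and 498 and 458 without a filter on dim probes. With the Hox score as a covariate 354 genes were DEGs, 101 of them among the 167. Without M + LFD replicates 1 and 2, chosen after seeing the data, the counts were 259 and 232. Without the M arrays they were 318 and 318, and without the F(OVX) arrays 337 and 333. With a group left out, 1 sign was asked of the remaining groups only. These counts with 1 sign cannot be set against the 146. Leaving out 1 array in turn gave 144 to 250 DEGs and 130 to 220 with 1 sign, the highest without F + LFD replicate 2. The cause of these shifts was not tested. The other 7 settings gave 133 to 173 DEGs. Of these, leaving out F(OVX) + LFD replicate 3 together with F + HFD replicate 2 gave 110 with 1 sign.

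In every setting run, 0 genes reached an adjusted p under 0.05, for the averaged effect and for its difference among groups. Of the 32 named DEGs, 20 lost their call with normexp correction, 12 without M + LFD replicates 1 and 2, and 15 without the M arrays, and none reversed.

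Same-numbered LFD and HFD arrays deviated together with r over 0.1 in 7 of 12 pairs. By group, r ran from 0.22 to 0.51 in F, from -0.06 to 0.32 in F(OVX) and from -0.25 to 0.09 in M. Same-numbered arrays thus deviated together, with r over 0.1, in F and in most pairs of F(OVX), and not in M. Arrays of different numbers were not compared, so a link by number is not shown. The labels do not say that the numbers pair the arrays, and the main fit did not pair them. With the replicate block 165 genes were DEGs, 141 of them among the 167. An unadjusted p under 0.05 was then seen for 1249 genes, against 965 in the main fit and 1119 for an even spread of p-values.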

Other observations

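Further DEGs with 1 sign in the 3 groups stand in no list, and those named here were picked after their values were seen. No theme is drawn from them, since most DEGs were lower on HFD. The interleukin receptor chain Il18r1 had a log2 fold change of -0.73 ± 0.25, and Ikzf2, the transcription factor Helios, -0.97 ± 0.39.

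Mmp7, a matrix protease of the epithelium, had -1.69 ± 0.57, with -2.44 in M, -1.96 in F and -0.68 in F(OVX). Tnfrsf11b, the decoy receptor osteoprotegerin, had -1.03 ± 0.43, and haptoglobin (Hp) -0.92 ± 0.44. Among up-regulated genes, Phox2a, a transcription factor of autonomic neurons, had 0.67 ± 0.30. The glycosyltransferase gene B3gnt7 had 1.21 ± 0.57, with differences of 3.24 in M, 0.23 in F and 0.17 in F(OVX). Values without M + LFD replicates 1 and 2 are not given for the genes of this section. None of these genes had an adjusted p under 0.05 (limma).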
